A study of Mus musculus with 6 samples.

Results

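The clustered histone genes are the copies of the histone genes that lie together in arrays in the mouse genome and that carry the symbols Hist1, Hist2, Hist3 or Hist4 followed by the name of the histone. They were taken by symbol alone: a row of the count tables was a member if its symbol began with Hist, a digit from 1 to 4 and the letter h. This gave 68 of the 23282 rows, of which 60 had at least 1 read in the 6 libraries and 8 had none (Hist1h1t, Hist1h3a, Hist1h3b, Hist1h3c, Hist1h3f, Hist1h3g, Hist1h3i and Hist3h2bb-ps). The libraries came from wild-type (WT) C57BL/6J male mice, 8 to 10 weeks old per the study's methods, that were given a normal chow diet (NCD, 3 libraries) or a high-fat diet (HFD, 60 kcal% fat, 3 libraries) for 10 days. RNA was taken from a forebrain hemisphere after the olfactory bulbs and cerebellum had been removed. The libraries were made with the QuantSeq 3′ mRNA-Seq kit, in which cDNA synthesis starts from an oligo-dT primer, and the comparison asks which transcripts differ in the brain after a short period on a fat-rich diet.

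Core histones H2A, H2B, H3 and H4 form the protein spool around which DNA is wound, and linker histone H1 binds where the DNA enters and leaves it. The clustered genes supply most histone protein during S phase, when newly copied DNA has to be packed, and most cells of the adult brain no longer divide. Their mRNAs are the main exception to polyadenylation in animals: they end shortly after a stem-loop that the stem-loop binding protein SLBP recognizes, and carry no poly(A) tail, although some clustered genes also make longer polyadenylated transcripts in cells that have stopped dividing. Histone variants such as H3.3 (H3f3a, H3f3b) and H2A.Z (H2afz) are made from genes outside the clusters, as polyadenylated mRNAs, throughout the cell cycle.

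The sequences at the 3′ ends are shown first, because the reads depend on where an oligo-dT primer can anneal. A stem-loop was searched on the sense strand of the GENCODE M21 transcripts (build GRCm38, which is mm10) as 6 bases starting with GG, a loop of TTTC, TTTA or TTTG, and 6 bases that pair with the first 6. It was in the transcripts of 41 of the 68 members, against 61 of 141691 other transcripts (0.0431%), and it took 4 forms. The capitals mark the 2 arms of the stem and the lower case the loop.
Form in 26 members, among them Hist2h2aa1, Hist1h2ap and Hist1h1e: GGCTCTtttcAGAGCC
Form in 7 members, all of them H4 genes such as Hist1h4h: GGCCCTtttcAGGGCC
Form in 6 members, among them Hist1h2bk and Hist1h3e: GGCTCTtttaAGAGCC
Form in 2 members, Hist1h4b and Hist1h4j: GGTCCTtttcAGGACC
The stem-loop lay within the last 100 bases of the transcript in 21 of the 41, and 2 of the 141691 other transcripts held it there (0.00141%). A loop of TTTT was outside the search. Hist2h2ac has the arms of the first form around such a loop and is counted here as without a stem-loop. A match describes the letters of the reference transcript, and it was not tested which 3′ ends the forebrain RNA had.

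The members with most reads differed in what the reference showed before the 3′ end. The next lines print stretches of at most 30 bases around a poly(A) signal (AATAAA or ATTAAA, capitals) or around the longest run of A in the transcript (capitals), because these are the features that can place a read from an oligo-dT primer.
Hist1h2bc, poly(A) signal: gtatatatAATAAAtgtcatgtaaagcaaa
Hist2h2be, poly(A) signal: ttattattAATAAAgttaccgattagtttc
Hist1h2be, poly(A) signal: tgttccttATTAAAgcattcctgattga
Hist1h2ap and Hist1h2ao, longest A run: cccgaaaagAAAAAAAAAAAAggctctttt
Hist2h2aa1, longest A run: cgagctcctAAAAAggctcttttcagagcc
In Hist1h2bc and Hist2h2be, H2B genes, the signal was 13 and 16 bases before the end that RefSeq gives the gene, and no stem-loop was found in either transcript. The GENCODE model of Hist1h2bc ran 428 bases past that RefSeq end, and no signal was in its last 50 bases. The longest run of A in that model, 8 bases, began directly after the RefSeq end, and the stretch printed above ends inside the run. Whether reads of Hist1h2bc were primed there was not tested. In Hist1h2ap and Hist1h2ao, H2A genes, a genome-encoded run of 12 A stood directly before the stem-loop, where Hist2h2aa1 had a run of 5.

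Reads were very unevenly spread over the members. The 60 members took 9786 reads in all, or 0.0174% to 0.0244% of the counts of each library, and the 9 members with most reads held 89.8% of them. H2A genes held 47.5% of the reads and H2B genes 42.6%, linker H1 genes held 6.06%, H4 genes 3.44% and H3 genes 0.347%. Hist2h2aa1 and Hist2h2aa2 held identical counts (1260 reads each), and both rows are in every share of the members' reads given here. H2A genes had 4650 reads with both rows and H2B genes 4172. With 1 of the rows left out, H2A genes would have fewer reads than H2B genes. By location, the large array on chromosome 13 (Hist1) held 67.5% of the reads, the array on chromosome 3 (Hist2) 31.6%, the 3 rows on chromosome 11 (Hist3) 0.787% and Hist4h4 on chromosome 6 0.112%. Since QuantSeq counts tags at 3′ ends, these are shares of reads and do not give the number of molecules of each gene.

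Hist1h2bc, a replication-type H2B gene with a spliced transcript (chr13:23684199-23692908, plus strand), had the most reads of any member. It had 583, 669 and 439 reads on the chow diet and 410, 655 and 591 on the high-fat diet, 34.2% of all reads of the members. It held between 26.0% of the members' reads, in NCD replicate 3, and 38.4%, in NCD replicate 1. On the scale of counts per 1000000 reads (CPM, scaled by the trimmed mean of M-values), it was 63.4 ± 14.8 in NCD and 70.5 ± 11.1 in HFD (SD, n = 3), and the groups overlapped. Its log2 fold change, HFD over NCD, was 0.16 ± 0.16 (SE) with an edgeR adjusted p of 0.979. Only 27.1% of the 75-base stretches of its transcript also occurred in another member, 75 bases being the read length.

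Hist2h2aa1 (chr3:96245497-96246082, plus strand) and Hist2h2aa2 (chr3:96239749-96240276, minus strand) are neighbouring copies of an H2A gene and shared the next rank. Both rows held 187, 258 and 198 reads in NCD and 151, 227 and 239 in HFD, so the 2 rows were identical in every library. All 75-base stretches of Hist2h2aa2 and 88.7% of those of Hist2h2aa1 occurred in another member. Outside the members, transcripts such as those of Gm20634 and H2afx held 100% and 88.9% of them between them. Exons of Gm20634 overlap those of Hist2h2aa1 on the same strand, so reads in the overlap could belong to either. The methods state that unique and multiple alignments were counted, and the tables do not show how a read that fits both copies was assigned, so the 2 rows are 1 measurement here. In CPM the highest library was HFD replicate 3 (32.8) and the lowest NCD replicate 3 (20.8), and the groups overlapped with a log2 fold change of 0.14 ± 0.17 (adjusted p = 0.979, edgeR).

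Hist1h2ap (chr13:21833026-21833507, minus strand) and Hist1h2ao (chr13:21810465-21810944, plus strand) are the H2A genes with the run of 12 A beside the stem-loop. Hist1h2ap had 140, 152 and 244 reads in NCD and 139, 139 and 206 in HFD. Hist1h2ao had 78, 74 and 128 reads in NCD and 74, 60 and 109 in HFD. Replicate 3 of each diet was highest for both genes, and the ratio of Hist1h2ap to Hist1h2ao stayed between 1.79 and 2.32. More than 9 in 10 of their 75-base stretches (92.7% and 93.1%) occurred in another member, so the split of reads between them is uncertain. Transcripts outside the members, H2afx among them, held 46.32% and 46.55% of the stretches. Their log2 fold changes were 0.08 ± 0.22 and 0.03 ± 0.27, both below their standard errors. The other 11 H2A genes of the Hist1 array had 499 reads together, against 1543 for this pair. Among them only the model of Hist1h2ac held so long a run (15 A). The models of Hist1h2aa, Hist1h2af, Hist1h2ah, Hist1h2ai, Hist1h2ak and Hist1h2an ended at the stop codon or within 2 bases of it. The run of the pair begins 26 bases after the coding sequence, so such a run could not be seen in those models.

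Linker histone reads came mainly from Hist1h1e (chr13:23620629-23622558, minus strand), with 524 of the 593 reads of the 6 H1 rows. It had 88, 76 and 113 reads in NCD and 63, 87 and 97 in HFD, the 2 groups overlapped, and the log2 fold change was 0.04 ± 0.22. Its stem-loop lay 1153 bases before the end of the GENCODE transcript, and the exons of that transcript overlap those of Hist1h2be and Gm11398 on the same strand, so reads in the overlap could belong to any of them.

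Hist2h2be (chr3:96221119-96223738, plus strand), an H2B gene with a long 3′ UTR and no stem-loop, is 1 of only 8 members that share no 75-base stretch with another. No full-length read could therefore match both it and another member exactly, while shorter trimmed reads and alignments with mismatches were not checked. Its counts were 77, 98 and 80 in NCD and 64, 80 and 101 in HFD, and in CPM HFD replicate 3 was highest (13.9) and NCD replicate 3 lowest (8.42). The log2 fold change was 0.15 ± 0.22, and the groups overlapped.

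Hist1h4h (chr13:23531050-23531519, plus strand) was the H4 gene with most reads, 178 in all, and Hist1h2be (chr13:23583670-23621124, minus strand) followed with 177. Hist1h4h had 23, 36 and 26 reads in NCD and 28, 32 and 33 in HFD, with overlapping groups and a log2 fold change of 0.34 ± 0.32. Hist1h2be, an H2B gene whose transcripts include a long spliced form, had 23, 27 and 30 reads in NCD and 25, 46 and 26 in HFD. In CPM it was 2.83, 2.91 and 3.16 in NCD and 3.59, 5.02 and 3.57 in HFD, so that the 3 HFD libraries were above the 3 NCD libraries. The log2 fold change was 0.46 ± 0.32, and the difference did not pass edgeR's quasi-likelihood test across all genes (adjusted p = 0.979). With quantile normalization and limma, the gene had an unadjusted p of 0.0403 and an adjusted p of 0.978.

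**Figure D1:**
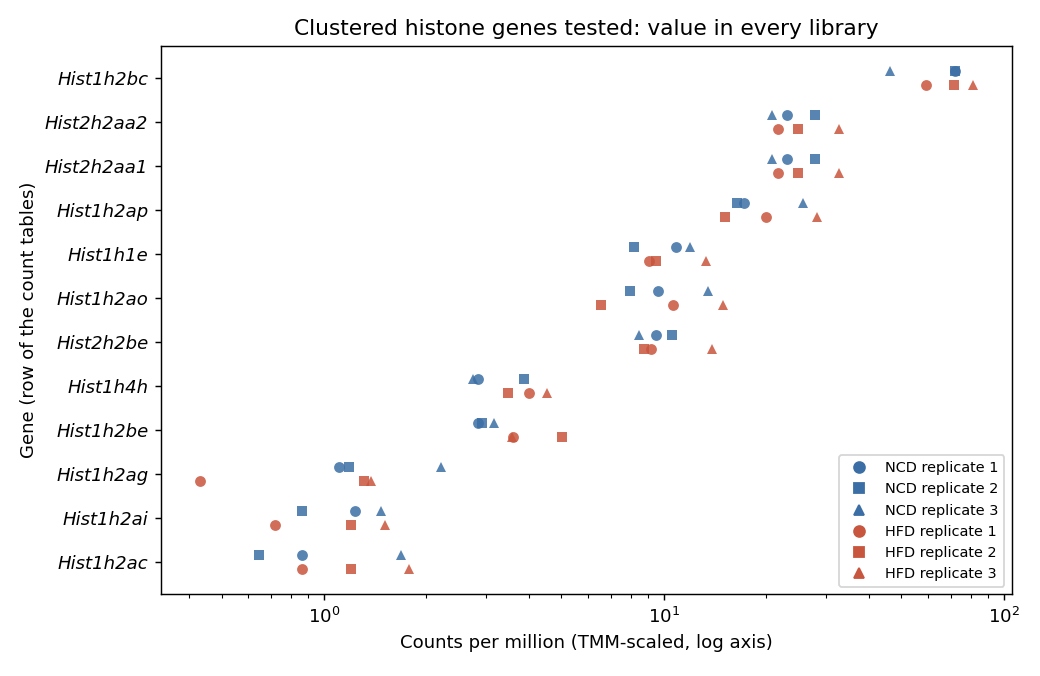
TMM-scaled CPM on a log axis for the 12 clustered histone genes tested, with NCD libraries in blue, HFD libraries in red and replicates 1 to 3 as circles, squares and triangles. HFD replicate 3 is the highest of the 6 libraries for 10 of the 12 genes, and for Hist1h2be the HFD libraries lie above the NCD libraries.

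The test between the diets covered 12 members, those that passed edgeR's filter on low counts, and these held 8973 of the 9786 reads. None of the 12 had an unadjusted p under 0.05 (smallest 0.171), where 508 of the 13771 genes tested did (3.69%). None had an adjusted p under 0.05, and over all genes tested 0 did (0%), with 2 under DESeq2. Of the 12 log2 fold changes 10 were above 0 and 2 below, with a median of 0.14, while 49.2% of all genes tested were above 0 and their median was -0.003. The members are not independent of each other, since they share reads, and with identical rows counted once 9 of 11 were above 0. In 1 of the 12 the groups did not overlap, where this held for 8.83% of all genes tested. The labels do not say whether the libraries came from separate mice, so the p-values measure the spread between these libraries. In every pair of libraries of the same diet, the chi-square per degree of freedom was 3.47 or more, where counting error alone gives about 1. Whether that spread came from separate mice or from technical steps was not tested.

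The remaining 3 genes tested were H2A genes with few reads and wide errors. Hist1h2ag had 9, 11 and 21 reads in NCD and 3, 12 and 10 in HFD, a log2 fold change of -0.51 ± 0.53, the largest in size of the 12 and a 1.43-fold difference. Hist1h2ac had 7, 6 and 16 reads in NCD and 6, 11 and 13 in HFD (0.25 ± 0.53). Hist1h2ai had 10, 8 and 14 reads in NCD and 5, 11 and 11 in HFD (-0.05 ± 0.50). In each of them the spread within a diet exceeded the difference between the diets.

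**Figure D2:**
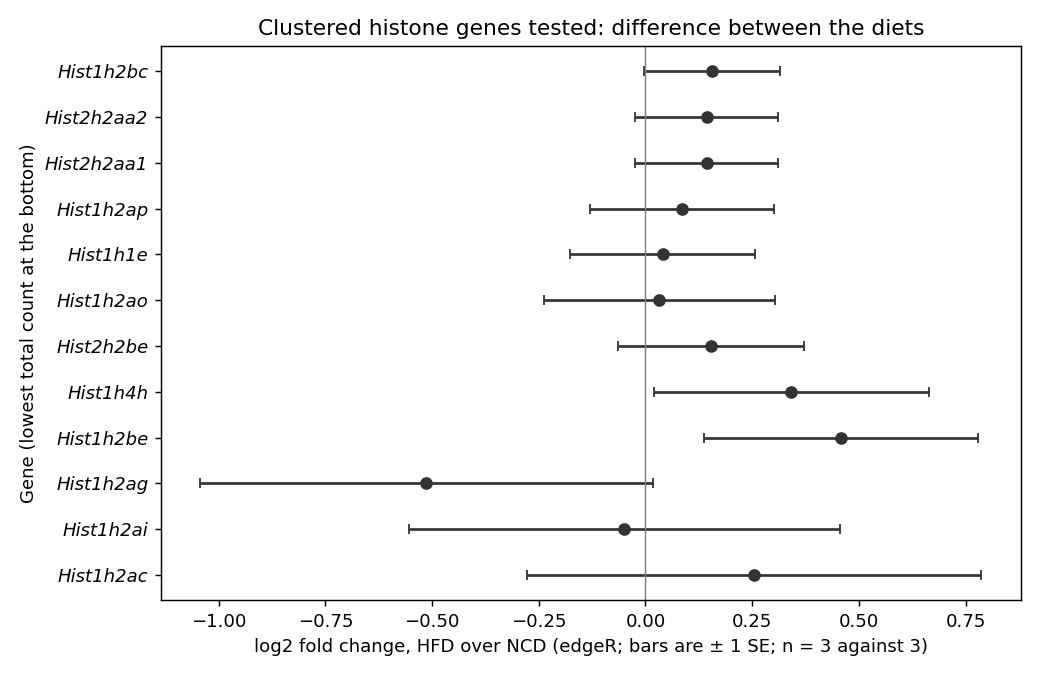
Log2 fold change, HFD over NCD, of the 12 clustered histone genes tested, with bars of 1 SE from the edgeR fit on 3 against 3 libraries. The values run from -0.51 for Hist1h2ag to 0.46 for Hist1h2be, and the 3 genes with fewest reads, at the bottom, have SEs of 0.50 to 0.53.

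HFD replicate 3 carried much of the positive direction. The members' summed level was 187, 193 and 178 CPM in NCD and 175, 188 and 254 CPM in HFD, so that 2 of the 3 HFD libraries lay within or below the NCD range. The means were 186 ± 7.67 CPM in NCD and 206 ± 42.8 CPM in HFD (SD, n = 3). Without HFD replicate 3, the difference of the summed level turned from 19.9 to -4.38 CPM, and the members' median log2 fold change turned from 0.14 to -0.12. In that fit 7 of the 12 genes tested changed sign, among them both identical Hist2h2aa rows. HFD replicate 3 also stood apart from the other libraries in genes that are not histones. The summed level of 4 pituitary genes fixed as markers (Gh, Prl, Pomc, Cga) was 1261 CPM in it and between 4.17 and 13.1 CPM in the other 5, and all 4 were highest in it. The summed level of 5 erythroid markers was 698, 543 and 823 CPM in HFD against 420, 519 and 485 CPM in NCD, highest in HFD replicate 3, and 4 of the 5 had an unadjusted p under 0.05 (3.69% of all genes tested). The part of either in the histone values was not tested.

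**Figure D3:**
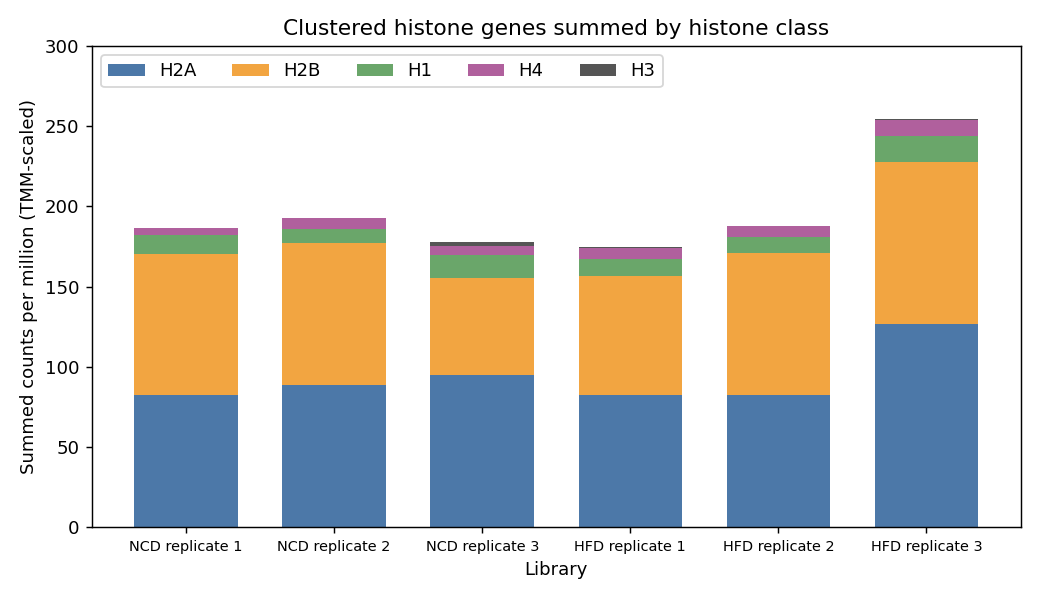
Summed TMM-scaled CPM of the 68 clustered histone rows in each library, stacked by histone class. The other bars lie between 175 and 193 CPM and that of HFD replicate 3 reaches 254 CPM, and H2A and H2B make up most of every bar.

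By class, the same library was highest for H2A, H2B, H1 and H4 but not for H3, where NCD replicate 3 had 2.32 CPM and HFD replicate 3 had 0.412 CPM. H2A genes summed to 82.3, 89.0 and 95.1 CPM in NCD and 82.3, 82.8 and 126 CPM in HFD. H2B genes summed to 87.9, 88.4 and 60.5 CPM in NCD and 74.3, 88.0 and 101 CPM in HFD, and Hist1h2bc, like the H2B sum, was lowest in NCD replicate 3. H1 genes ranged from 8.73 to 13.9 CPM in NCD and from 10.3 to 16.1 CPM in HFD. H4 genes summed to 4.68, 6.46 and 5.79 CPM in NCD and 7.04, 6.76 and 10.02 CPM in HFD, the only class in which the 3 HFD libraries were above the 3 NCD libraries. The H4 sum is a description with no test, and Hist1h4h alone gave 178 of its 337 reads.

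Replicate 3 of both diets was also where the 45S ribosomal RNA precursor Rn45s, an RNA without a poly(A) tail, took its largest share of counts. Rn45s made up 6.18%, 5.62% and 7.35% of the counts in NCD and 5.55%, 6.99% and 8.75% in HFD. The summed level of Hist1h2ao and Hist1h2ap was 26.8, 24.4 and 39.2 CPM in NCD and 30.6, 21.7 and 43.2 CPM in HFD. Both quantities were highest in the same 2 libraries, but HFD replicate 2 was lowest for the histone pair and above 3 of the other libraries for Rn45s. The other 11 H2A genes of the Hist1 array summed to 8.13, 7.43 and 13.1 CPM in NCD and 6.47, 9.49 and 14.8 CPM in HFD, again highest in the 2 replicate 3 libraries. Hist1h2bc did not move with them, since it was lowest in NCD replicate 3 (46.2 CPM) and highest in HFD replicate 3 (81.1 CPM). Whether RNA without a tail entered these libraries to different extents was not tested.

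Set beside the 3′ ends, the reads fell into few genes of each kind. The 30 members with a stem-loop and no poly(A) signal held 5011 reads, and 5 of them (Hist2h2aa1, Hist2h2aa2, Hist1h2ap, Hist1h1e, Hist1h2ao) held 4587, the next having 67. The 11 members with both features held 549 reads, among them Hist1h4h and Hist1h2be. The 7 with a poly(A) signal and no stem-loop, counting a signal within 50 bases of the end of the GENCODE transcript or of the RefSeq gene, held 3924 reads, of which Hist1h2bc had 3347 and Hist2h2be 500. The 5011 reads count both identical Hist2h2aa rows, 1260 each, and with 1 row left out they would be fewer than 3924. A signal before the RefSeq end, a search added after the counts were seen, could be sought in the 46 members whose RefSeq end lay in a transcript model. It was found in 4 (Hist1h2bc, Hist2h2be, Hist1h2be and Hist1h2br), all of them among the 19 H2B rows. Together they had 41.5% of the members' reads, and Hist1h2bc alone had 34.2%. A signal in the last 50 bases of the GENCODE transcript was found in 17 members, where 33.8% of other transcripts had one. In 15 of the remaining members the transcript model ended at the stop codon or within 2 bases of it, so the absence of a match there says nothing about the mRNA.

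**Figure D4:**
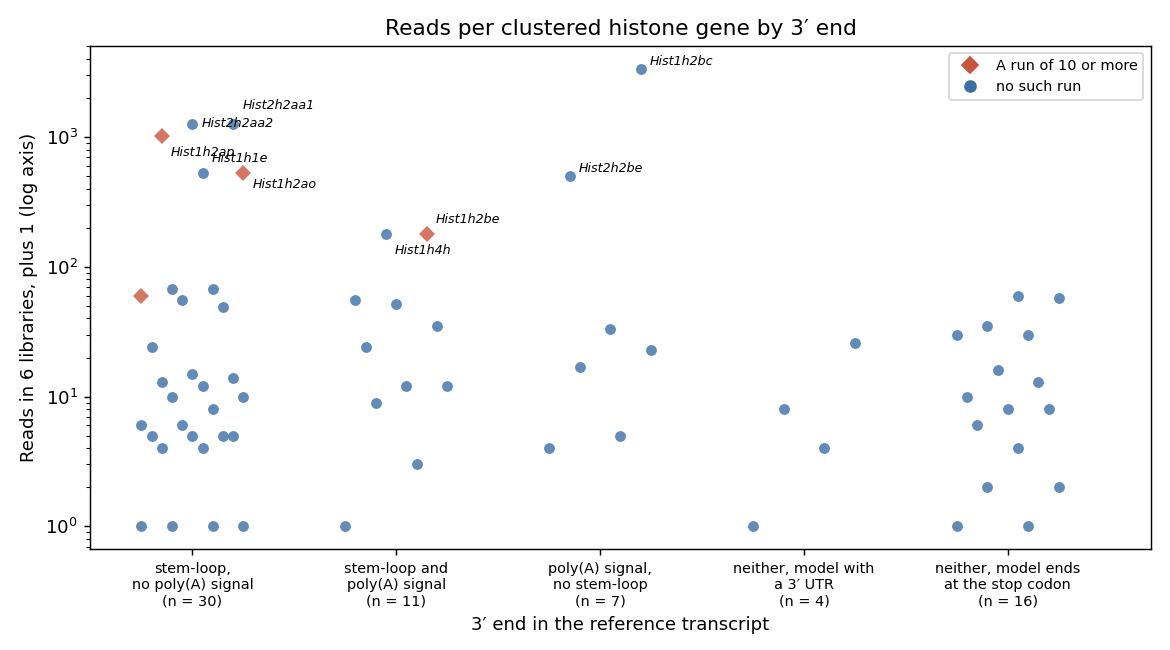
Reads in the 6 libraries plus 1, on a log axis, for each of the 68 clustered histone genes, grouped by the features of the 3′ end in the reference; diamonds mark transcripts with a run of 10 or more A. The last column holds 15 models that end at or within 2 bases of the stop codon and 1 pseudogene without a coding sequence. Genes with 170 reads or more are named, and most genes of every column have fewer than 70 reads.

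Hist1h2be (11 A), Hist1h2ac (15 A), Hist1h2ao and Hist1h2ap (12 A each) were the 4 members whose transcript models held a run of 10 or more A. These 4 had 1779 reads, 18.2% of the total. Models that ended at the stop codon or within 2 bases of it could not show a run after it. A long run alone did not go with many reads, since Hist1h2ac had only 59. In it the run lay 808 bases after the stem-loop, past the end of a stem-loop mRNA, and in Hist1h2be it lay 805 bases after.

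H3 genes were close to absent. All 12 H3 rows together had 34 reads, and 6 of them had none. Hist2h3c1 and Hist2h3c2 made up 22 of the 34, through 11 reads that stood in both rows in NCD replicate 3 and in no other library. By contrast H3f3a and H3f3b, which encode the replication-independent H3.3 and end in a poly(A) tail, had 13113 reads together. With a floor of 3 reads in a library, between 0.316 and 0.431 CPM, a single H3 row was below the floor in nearly all libraries, so a difference between the diets was not detectable at this depth.

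A further 15 members had 22 to 67 reads in all but did not pass the filter, and their fold changes come from a fit without it. No library had more than 18 reads of any of them. They include the linker histones Hist1h1c and Hist1h1d, the H2A genes Hist1h2ab, Hist1h2ad, Hist1h2ae, Hist1h2af, Hist1h2ah, Hist1h2ak, Hist1h2an, Hist2h2ac and Hist3h2a, the H2B genes Hist1h2bq, Hist1h2br and Hist3h2ba, and the H4 gene Hist1h4d. Their log2 fold changes ran from -1.11 (Hist1h2br) to 1.97 (Hist3h2ba) with SEs of 0.60 to 1.12, 10 of the 15 were above 0, and the smallest p was 0.0791. With quantile normalization and limma, Hist2h2ac (unadjusted p = 0.00584) and Hist3h2ba (unadjusted p = 0.0198) passed 0.05, both with an adjusted p of 0.947. By edgeR without the filter their unadjusted p-values were 0.0902 and 0.0791. Of the genes that passed the filter, 587 of 13771 had an unadjusted p under 0.05 with quantile normalization and limma. Hist2h2ac, an H2A gene, had 0, 2 and 4 reads in NCD and 4, 8 and 7 in HFD. In CPM its groups did not overlap, which held for 8.83% of the genes that passed the filter. Hist1h2br, an H2B gene with a poly(A) signal before its RefSeq end, had 11, 11 and 1 reads in NCD and 3, 1 and 5 in HFD, and NCD replicates 1 and 2 were its highest libraries.

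The other 33 members had 1 to 19 reads each and 232 reads together, with a median of 7. Without the filter, 3 of the 60 members with a read had an unadjusted p under 0.05, where 4.76% of the 18936 genes with a read did, and none had an adjusted p under 0.05 (smallest 0.941). These 3 are named because of their values. Hist1h4k, an H4 gene, had 0, 0 and 1 reads in NCD and 4, 2 and 5 in HFD. Hist2h3c1 and Hist2h3c2 were the 2 identical H3 rows whose reads all stood in NCD replicate 3.

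Genes that serve the clustered histones were described from lists. SLBP, which binds the stem-loop, was encoded by 97, 116 and 66 reads in NCD and 60, 84 and 74 in HFD, and Slbp had a log2 fold change of -0.16 ± 0.23. Of 16 genes tested for transcription and 3′ processing of histone mRNA, 1 was higher and 1 lower at an unadjusted p under 0.05, beside the 3.69% of all genes tested that were in either direction, and the median was -0.02. Ncbp2, a subunit of the nuclear cap-binding complex, was the higher one (log2 fold change 0.27 ± 0.13), and Cpsf3, the endonuclease that cuts histone pre-mRNA as well as polyadenylated pre-mRNA, the lower one (-0.30 ± 0.12). In both the groups did not overlap in CPM, and both had an adjusted p of 0.979 by edgeR. Of the 16, the groups did not overlap in 1 with HFD higher and in 3 with HFD lower, beside 8.83% of all genes tested. The unadjusted call of Ncbp2 was lost under DESeq2, total-count scaling, quantile normalization with limma and the replicate block (unadjusted p of 0.0603, 0.0584, 0.0807 and 0.0701), and without any 1 of 4 libraries. That of Cpsf3 was lost without NCD replicate 3 or HFD replicate 1.

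Among the replication-independent histones, 11 were tested, 1 had an unadjusted p under 0.05, beside 3.69% of all genes tested, and the median log2 fold change was 0.01. That gene was H2afj, an H2A variant gene, with 45.9, 40.1 and 45.7 CPM in NCD and 47.8, 52.1 and 69.7 CPM in HFD (log2 fold change 0.37 ± 0.14, adjusted p = 0.979, edgeR). The value was 0.19 once HFD replicate 3 was left out, and the unadjusted call was lost there, without NCD replicate 2 and with quantile normalization and limma (unadjusted p = 0.0604). H3f3b was 203, 211 and 205 CPM in NCD and 161, 200 and 200 CPM in HFD (-0.14 ± 0.11), and H3f3a was 61.5, 62.6 and 56.0 CPM in NCD and 61.3, 58.2 and 79.1 CPM in HFD (0.14 ± 0.13). H2afz (0.01 ± 0.10), the DNA damage variant gene H2afx (0.00 ± 0.15) and the linker histone gene H1f0 (-0.07 ± 0.10) were each within 1 SE of 0.

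Histone chaperones, which hand histones to DNA, had 17 genes tested, of which Cabin1 was lower at an unadjusted p under 0.05 (-0.37 ± 0.14) and none was higher, beside 3.69% of all genes tested in either direction. Without HFD replicate 3 Cabin1 was at -0.22 and its unadjusted call was lost, as it was without NCD replicate 1. DNA replication and S-phase genes had 22 tested, with 7 log2 fold changes above 0 and 15 below, where 49.2% of all genes tested were above 0. Their median was -0.10, and 2 had an unadjusted p under 0.05, both lower, beside 3.69% of all genes tested. Mki67, a marker of cycling cells, had 16, 10 and 26 reads in NCD and 10, 3 and 4 in HFD (-1.36 ± 0.58), and its unadjusted call was lost without NCD replicate 1, NCD replicate 3, HFD replicate 2 or HFD replicate 3. Its value was -2.13 without HFD replicate 1. Cdk2, a kinase of the entry into S phase that the study also named from these same libraries, had 27, 33 and 26 reads in NCD and 12, 10 and 14 in HFD (-1.03 ± 0.39), and its groups did not overlap. Of the 22, the groups did not overlap in 1 with HFD higher and in 2 with HFD lower, beside 8.83% of all genes tested. The unadjusted call of Cdk2 was lost without NCD replicate 2 or HFD replicate 2. The adjusted p was 0.979 for each of these 3 genes. In bulk tissue, fewer cells of a type and less RNA per cell cannot be told apart.

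Counts summed over all rows ran from 6842785 to 9689372 per library. Markers of neurons, astrocytes, oligodendrocytes and microglia were present in every library. For a member with a read, the median of the mean count per library was 2.25, against 182.5 for all genes tested, and the SEs were widest in the genes with fewest reads.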

How the data were processed

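The deposited values are read counts per gene, made by the authors from QuantSeq 3′ reads (single-end, 75 bases) that were trimmed of adaptor sequence and aligned to mm10 with Bowtie2; per the study's methods, bedtools counted unique and multiple alignments. The annotation, the use of strand and tool versions are not given in the sources used here. The quantile normalization named in the methods was not in the deposited counts. Depth was 6842785 to 9689372 counts per library.

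Counts were tested in edgeR 4.0.16 (R 4.3.3): filterByExpr (minimum count 10, minimum total 15), TMM scaling, glmQLFit and glmQLFTest with Benjamini-Hochberg adjustment over all 13771 genes tested, HFD against NCD, 3 libraries each, two-sided. SE was taken from the log2 fold change and the F statistic. Genes under the filter were fitted without it. Alternatives used DESeq2 1.42.0, limma 3.58.1 on log2(CPM + 1), other scalings, filters and libraries left out. On simulated counts with 200 genes changed 2-fold, the edgeR step was checked. Genes were named by rule: members tested, members with 20 reads or more, 6 related genes, and genes of 4 related lists with an unadjusted p under 0.05. The members and lists were chosen with earlier results of these data known. 3′ ends were read from GENCODE M21 and RefSeq gene ends (GRCm38.p6). The floor of 3 counts covers counting error only, and SDs and SEs include the spread between libraries.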

Additional observations from a re-analysis of the deposited data

How the results depend on the processing

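The number of genes with an adjusted p under 0.05 was 0 with edgeR, 2 with DESeq2, 23 without a filter and 0 to 3 when 1 library was left out (3 without NCD replicate 3). The number of clustered histone genes with an unadjusted p under 0.05 was 0 of the 12 that passed the filter, but 1 of the same 12 with quantile normalization and limma (Hist1h2be), 3 of 60 without a filter and 0 to 1 of those that passed when 1 library was left out (Hist1h2ae without HFD replicate 1). Over all genes tested, 587 of 13771 had such a p with quantile normalization and limma. The same held for 902 of 18936 without a filter (4.76%) and for 774 of 14163 without HFD replicate 1. The members' median log2 fold change was 0.14, between 0.12 and 0.15 under the other settings and between -0.12 (without HFD replicate 3) and 0.25 when 1 library was left out. Each median is over the members that passed in that setting, 16 without HFD replicate 3 and 14 without HFD replicate 2, which gave the 0.25. The summed-CPM difference, 19.9, ran from -4.38 (without HFD replicate 3) to 35.4 (without HFD replicate 1), and was 17.7 with identical rows counted once, a choice made after seeing the data. The stem-loop was in 41 members' transcripts and in 21 within the last 100 bases, and the poly(A) signal in 17 and 18.

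With scaling by total counts only, Hist1h2ah was -0.012, H2afz -0.0075 and H2afx -0.017. Hist1h2ak was 0.0027 with quantile normalization and H2afx -0.00065 with at least 10 counts in every library. When 1 library was left out, the ranges that crossed 0 were -0.29 to 0.30 for Hist1h2ao, -0.18 to 0.32 for Hist1h2ap, -0.57 to 0.25 for Hist1h2ah, -0.0061 to 0.86 for Hist1h2af, -0.020 to 1.15 for Hist1h1d, -0.15 to 0.16 for Hist1h1e, -0.037 to 0.46 for Hist1h2ac, -0.45 to 0.71 for Hist1h1c, -0.28 to 0.18 for Hist1h2ai, -0.63 to 0.47 for Hist1h2ak, -0.86 to 0.23 for Hist1h2an, -0.63 to 0.25 for Hist1h2ad, -0.35 to 0.34 for Hist1h4d, -0.028 to 0.27 for Hist1h2bc, -0.083 to 0.28 for Hist2h2be, -0.036 to 0.27 for Hist2h2aa1 and Hist2h2aa2, -0.0051 to 0.23 for H3f3a, -0.038 to 0.061 for H2afz and -0.11 to 0.13 for H2afx. Ranges that kept their sign but moved by over 1.5 times were -0.73 (without HFD replicate 3) to -0.12 (without NCD replicate 3) for Hist1h2ag, 1.39 to 3.56 (without NCD replicate 1) for Hist3h2ba, -0.39 (without NCD replicate 3) to -0.01 (without NCD replicate 2) for Slbp, -2.13 (without HFD replicate 1) to -0.96 for Mki67, -0.48 to -0.22 (without HFD replicate 3) for Cabin1, 0.27 (without HFD replicate 2) to 0.55 for Hist1h2be, 0.25 to 0.52 (without NCD replicate 2) for Hist1h4h, 0.14 (without NCD replicate 3) to 0.40 for Hist3h2a, -1.45 to -0.19 (without HFD replicate 2) for Hist1h2bq, -1.71 (without HFD replicate 3) to -0.63 (without HFD replicate 2) for Hist1h2br, 0.41 (without HFD replicate 3) to 1.10 for Hist1h2ab, 0.19 (without HFD replicate 3) to 0.47 for H2afj, -0.19 to -0.041 for H3f3b and -0.09 to -0.036 for H1f0 (both upper ends without HFD replicate 1). Without any filter, and with 1 library left out, Hist3h2ba passed an unadjusted 0.05 without NCD replicate 1, as did Hist2h2ac without NCD replicate 3 (2.67). The cause was not tested.

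Replicate numbers are shared by the diets, but over all genes tested same-numbered libraries did not deviate together (correlations -0.03, 0.05 and -0.06), so the numbers were not taken as pairs. Single RNAs could still do so. Rn45s (7.35% in NCD, 8.75% in HFD) and the summed H2A genes of the Hist1 array (52.2 and 58.1 CPM) were highest in replicate 3 of both diets. With the replicate block, 370 genes had an unadjusted p under 0.05 in place of 508, 0 had an adjusted p under 0.05, no member changed its side of the threshold, Ncbp2 lost its unadjusted call, and Hist1h2ah turned to -0.057. Most members had a few reads per library, which limits their precision.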
